A study of Mus musculus with 36 samples.

Results

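The Trim genes Trim12a, Trim12c, Trim30a, Trim30d and Trim34a belong to the group of mouse genes that lies where other mammals carry TRIM5, and their expression was read in mouse blood from every probe set (a group of short probes for the transcripts of a gene) whose platform annotation names 1 of these 5 genes and no other. This gave 10 probe sets, 2 for each gene, out of 45037 on the array outside its control sets. A further 3 probe sets carry several symbols that include 1 of the 5 genes, and no value of theirs is given. Blood came from 18 male mice aged 8 weeks, 3 from each of the inbred strains C57Bl/6J, 129S1/ImJ, DBA/2J, A/J, FVB/NJ and C3H/HeJ, all untreated as far as the labels say. Each mouse gave a pair of arrays, 1 of whole RNA and 1 of GLOBINclear RNA, in which globin transcripts had been captured on oligonucleotides and taken out of a portion of that mouse's RNA. The samples therefore fell into 12 groups of 3 arrays, 36 arrays in all, and the comparisons are between preparations of 1 mouse and between strains. Values are log2 expression summaries as deposited, so that a difference of 1 is a 2-fold change.

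TRIM5 is an antiviral protein of the cytoplasm. It binds the capsid of a retrovirus that has just entered the cell, forms a lattice on it and stops the infection, and in doing so acts as a ubiquitin ligase that activates TAK1 and NF-kB signalling. The TRIM proteins share a RING domain, a B-box and a coiled coil, and many of this group add a B30.2 (SPRY) domain that recognises the target. In rodents the locus has expanded into the Trim12 and Trim30 genes next to Trim5 and Trim34, and many TRIM genes are induced by interferon. Trim30a, the best known mouse member, is raised in macrophages by Toll-like receptor signals and restrains NF-kB activation by promoting the loss of TAB2 and TAB3. Trim12c acts with TRAF6 in the induction of type I interferon.

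In the RefSeq gene order on chromosome 7 the run from Trim6 to Trim30d holds 11 protein-coding genes, of which 10 are Trim genes. The order is Trim6, Trim34a, Trim5, Trim12a, Trim34b, Trim12c, Gm38525, Trim30b, Trim30c, Trim30a and Trim30d. Between Hbb-y, the last gene of the beta globin cluster, and Trim6 lie 22 protein-coding genes, of which 18 are olfactory receptor (Olfr) genes. The 5 genes thus stand near the beta globin cluster, a source of the globin mRNA that was removed, while being separate genes from it.

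The promoters are shown because all 5 genes carry the same short motif near the start. Promoter windows of 300 bases (250 before to 50 after each annotated start; RefSeq, GRCm38.p6) were found for all 5 genes, 6 windows in all since Trim30a has 2 annotated starts. They were searched on both strands for the core of the interferon-stimulated response element, GAAANNGAAA, which reads TTTCNNTTTC on the opposite strand and was the single motif searched. Of the 6 windows, 6 held exactly 1 match, in each case as TTTCNNTTTC on the strand of the gene, while 3.43% of all 32817 windows and 3.98% of all 26996 genes with a window held the motif. The stretches of 100 bases that hold the match follow, 5′ to 3′ on the strand of the gene, with the match in capitals. They come from chr7:104315466-104315565 (minus strand), chr7:104353324-104353423 (minus), chr7:104465175-104465274 (minus), chr7:104507836-104507935 (minus) and chr7:104244387-104244486 (plus).
Trim12a: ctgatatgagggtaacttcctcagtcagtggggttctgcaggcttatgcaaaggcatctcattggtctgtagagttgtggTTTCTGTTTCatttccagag
Trim12c: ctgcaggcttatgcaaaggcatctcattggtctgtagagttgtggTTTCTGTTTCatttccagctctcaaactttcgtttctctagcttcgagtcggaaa
Trim30a: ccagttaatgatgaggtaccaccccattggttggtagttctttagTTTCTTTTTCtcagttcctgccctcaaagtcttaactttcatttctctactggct
Trim30d: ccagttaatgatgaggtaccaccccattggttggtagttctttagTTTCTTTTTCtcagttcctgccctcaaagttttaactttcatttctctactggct
Trim34a: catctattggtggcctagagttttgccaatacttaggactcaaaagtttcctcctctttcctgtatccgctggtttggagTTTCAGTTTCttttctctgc

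The match reads TTTCTGTTTC in Trim12a and Trim12c, TTTCTTTTTC in both windows of Trim30a and in Trim30d, and TTTCAGTTTC in Trim34a. It begins 29 bases before the start in Trim12c, 36 before the first start of Trim30a and 41 before that of Trim30d. In Trim12a and Trim34a it begins at base 11 after the start, and at the second start of Trim30a at base 3. The windows of Trim12a and Trim12c shared 247 of 260 aligned bases (95%), and those of Trim30a and Trim30d 276 of 295 (93.6%), so the 6 matches are not independent of each other. A match is a description of the letters and was not tested as a site. Near-identical copies also bear on the arrays: probe sequences were not used here, so how far a probe set of 1 gene also reads its neighbour was not tested.

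The arrays carried blood cell markers: in GLOBINclear RNA 10 of 10 erythroid and 10 of 10 platelet marker genes had a mean of at least log2 5, against 4 of 11 T cell, 6 of 9 B cell and 3 of 9 neutrophil markers. The 8 adult globin probe sets fell in 18 of 18 mice, from a mean of 10.11 to 8.92. Between 2196 and 3122 probe sets per array reached log2 5 in whole RNA, and between 3802 and 5278 in GLOBINclear RNA. The highest count in either preparation belonged to C57Bl/6J replicate 1, which also had the lowest mean correlation with the other arrays of its group (0.958 in whole and 0.944 in GLOBINclear RNA), so C57Bl/6J calls are also given without it. In bulk blood, fewer cells of a type and less RNA per cell cannot be told apart.

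The Trim probe sets were dim. Their means over all 36 arrays ran from 2.76 to 4.58, where the median probe set stood at 2.89 and the 75th percentile at 3.41. Values near that median lie close to background. Tests covered the 22518 probe sets whose mean exceeded the median, among them 8 of the 10, with at least 1 for each gene. The pair left out were Trim30d 1438716_at (mean 2.88) and Trim34a 1424857_a_at (mean 2.76).

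**Figure D1:**
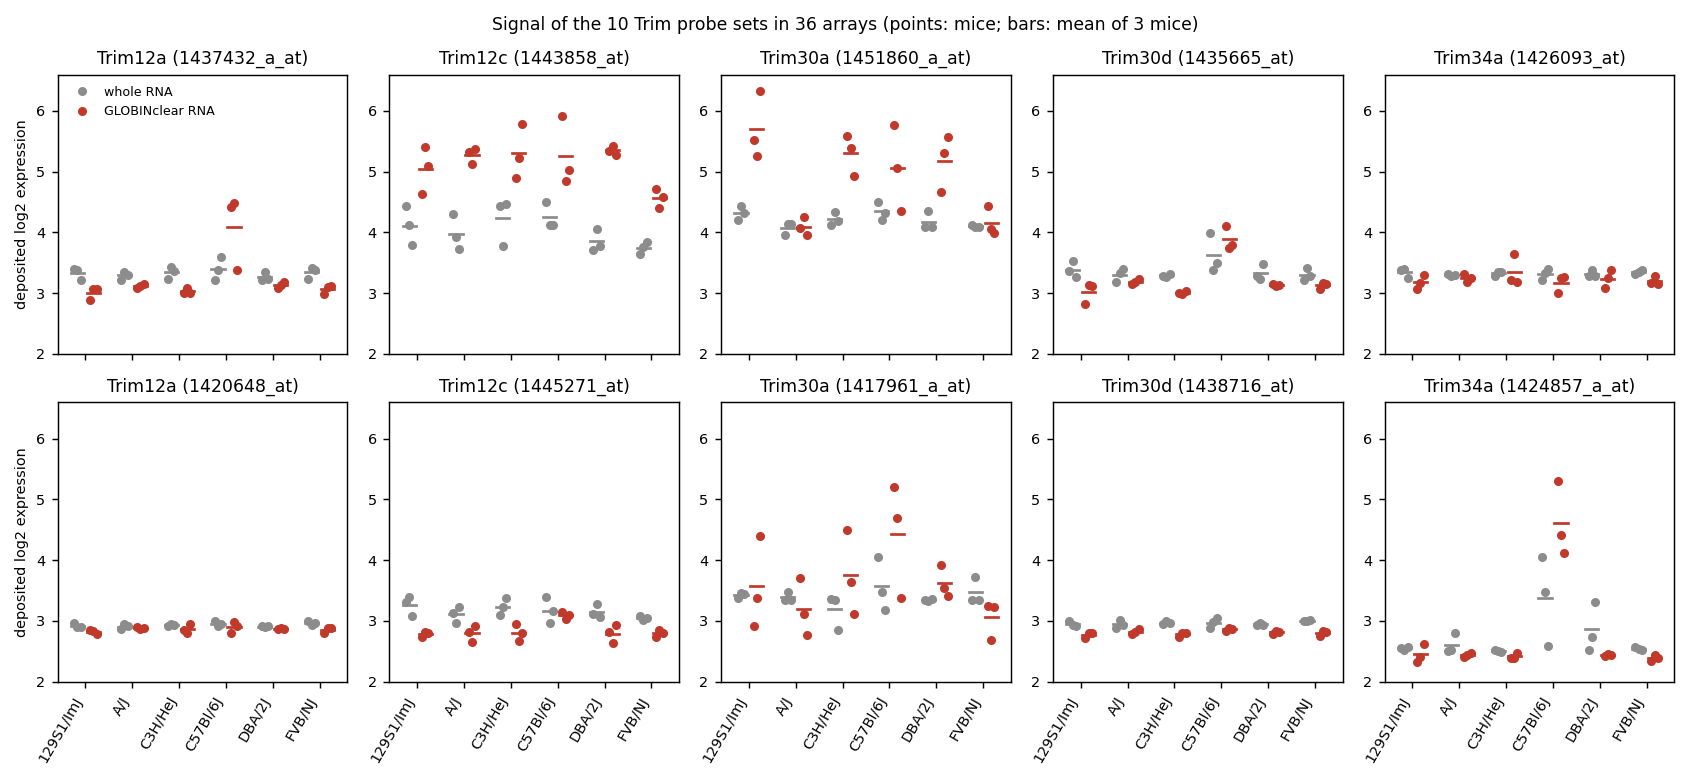
Deposited log2 expression of the 10 Trim probe sets (1 panel each, vertical axis) by strain (horizontal axis) in whole RNA (grey) and GLOBINclear RNA (red). Points are mice and bars the mean of 3 mice. Trim12c 1443858_at is higher in GLOBINclear RNA in every mouse, Trim30a 1451860_a_at in 15 of 18, and the C57Bl/6J arrays of GLOBINclear RNA stand above all others in 4 panels (Trim12a 1437432_a_at, Trim12c 1445271_at, Trim30d 1435665_at and Trim34a 1424857_a_at).

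The first comparison asked how removing globin mRNA changed the readout of these genes. On the deposited scale the brighter set of each of Trim12c and Trim30a was read higher after depletion, and most dimmer probe sets were read slightly lower. Of the 8 tested sets, 6 passed the threshold (limma with the mouse as a block, Benjamini-Hochberg adjusted p under 0.05), 2 higher and 4 lower. Over all tested probe sets 87% passed, 39.4% higher and 47.6% lower, so passing does not set these sets apart. A rise of at least 2-fold was seen in 1 of the 8 and in 18.2% of all tested sets.

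The Trim12c set 1443858_at had a lowest, median and highest value of 3.65, 3.98 and 4.51 in whole RNA. In GLOBINclear RNA the values were 4.403, 5.18 and 5.91. It rose in 18 of 18 mice, by 1.11 ± 0.09 (SE) on the log2 scale (adjusted p = 1.81e-09). Within strains the mean rise ran from 0.82 ± 0.22 (SE) in FVB/NJ to 1.5 ± 0.22 in DBA/2J, and the difference between strains did not pass (interaction adjusted p = 0.665). The mice of 129S1/ImJ show the widest spread: replicate 1 went from 4.43 to 4.63, replicate 2 from 4.11 to 5.41 and replicate 3 from 3.79 to 5.10. Quantile normalization of all 36 arrays to 1 distribution left a rise of 0.35 (adjusted p = 0.00749).

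The Trim30a set 1451860_a_at had a lowest, median and highest value of 3.95, 4.16 and 4.51 in whole RNA and of 3.95, 4.996 and 6.33 in GLOBINclear RNA. It rose in 15 of 18 mice, by 0.71 ± 0.14 (SE; adjusted p = 0.000128). Under quantile normalization of all arrays the sign turned (-0.11, adjusted p = 0.263), so the direction of this rise depends on the scaling. The rise differed in size among strains: 1.39 ± 0.24 (SE) in 129S1/ImJ, 1.08 in C3H/HeJ, 1.01 in DBA/2J and 0.71 in C57Bl/6J, against 0.06 in FVB/NJ and 0.02 in A/J. The effect passed within the first 4 strains (adjusted p from 0.000201 to 0.019) and not within FVB/NJ (0.832) or A/J (0.958). Of all tested sets, 70.4% passed within 129S1/ImJ, 66.4% within C3H/HeJ, 55.5% within DBA/2J, 62.8% within C57Bl/6J, 62.6% within FVB/NJ and 47.9% within A/J. However, the test of the difference between strains gave an adjusted p of 0.103 and did not pass. The other Trim30a set, 1417961_a_at, went from a mean of 3.397 to 3.604, higher in 11 of 18 mice, which did not pass (0.21, adjusted p = 0.168).

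The 4 sets that fell were the second Trim12c set, 1445271_at, by 0.318 ± 0.04 (SE), Trim30d 1435665_at by 0.14, Trim34a 1426093_at by 0.10 and Trim12a 1420648_at by 0.06 on the log2 scale. Trim12c 1445271_at fell in 17 of 18 mice, so the 2 sets of this gene moved in opposite directions. Over all tested probe sets the median difference was -0.05. Centring the arrays on 18 hybridization spike-in probe sets moved that median by 2.08, and all 4 of these falls then read as rises of 1.76 to 2.01. The fall of Trim12a 1420648_at also turned under median centring (0.0156) and under quantile normalization of all arrays (0.0139). Trim12a 1437432_a_at was lower in 16 of 18 mice and did not pass (-0.09, adjusted p = 0.432).

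**Figure D2:**
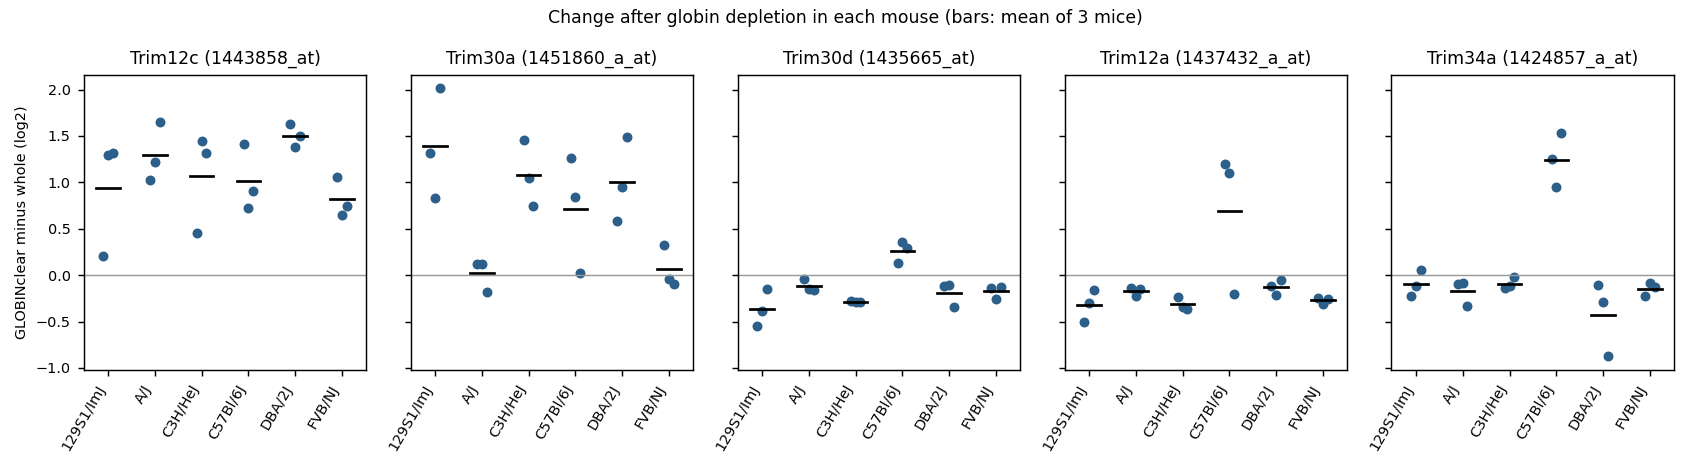
GLOBINclear minus whole RNA on the log2 scale (vertical axis) in each mouse, by strain, for 5 Trim probe sets. Points are mice, black bars the mean of 3 mice and the grey line marks no change. Trim12c 1443858_at rose in 18 of 18 mice, Trim30a 1451860_a_at changed by 0.02 on average in A/J and 0.06 in FVB/NJ, and Trim30d 1435665_at and Trim34a 1424857_a_at rose in all 3 C57Bl/6J mice while their means in the other strains fell.

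The second comparison asked whether the strains differ, and whether that shows in both preparations. In whole RNA 0 of the 8 tested sets passed the F test for strain (limma), and 0 had an unadjusted p under 0.05, beside 4.32% of all tested probe sets that passed. In GLOBINclear RNA of the same mice 3 of the 8 passed, beside 11.2% of all tested sets: Trim30d 1435665_at (adjusted p = 0.00012), Trim12a 1437432_a_at (0.00725) and Trim30a 1451860_a_at (0.0205). The interaction, which tests whether depletion changed the strain differences, passed for 1 of the 8 (Trim30d 1435665_at, adjusted p = 0.026), beside 2.75% of all tested sets. For Trim12a and Trim30a it did not pass (0.137 and 0.103), so a difference between preparations is not shown for them.

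C57Bl/6J read higher than the other 5 strains in 1 of the 2 probe sets of each of Trim12a, Trim30d and Trim34a. The other set of each gene showed no such difference. Probe sequences were not used, so whether sequence differences between strains under the probes bear on these readings was not tested. The high Trim34a set lay below the filter and is not among the tested sets. On the average of each mouse's pair of arrays, 2 of the 8 tested sets passed in C57Bl/6J against the other 5, both higher, where 5.8% of all tested sets passed and 3.87% passed as higher. No tested set passed in the other 5 strains by this contrast (limma; 1 set with an unadjusted p under 0.05 in each of 129S1/ImJ, A/J and C3H/HeJ, 0 in DBA/2J and 2 in FVB/NJ). Of all tested sets 5.78% passed in 129S1/ImJ, 3.24% in A/J, 1.39% in C3H/HeJ, 2.14% in DBA/2J and 3.76% in FVB/NJ. In GLOBINclear RNA the 3 C57Bl/6J arrays lay above the 15 others in 4 of the 10 probe sets, beside 1.07% of tested probe sets and 0.699% of all probe sets outside the controls. In whole RNA they lay above in 0 of 10, beside 0.924% of tested probe sets and 0.508% of all.

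Trim12a 1437432_a_at read 4.41, 4.48 and 3.38 in the 3 C57Bl/6J arrays of GLOBINclear RNA, where the 15 others had a lowest, median and highest value of 2.89, 3.08 and 3.18. In whole RNA the C57Bl/6J arrays read 3.22, 3.38 and 3.59 and the others 3.21 to 3.43. The groups were apart after depletion and overlapped before it, and replicate 3 lay only just above the other strains. C57Bl/6J exceeded the other strains by 0.55 ± 0.07 (SE; adjusted p = 0.000134), and each of its 5 pairs passed (differences of 0.54 to 0.57). With GLOBINclear arrays alone the difference was 1.02 (adjusted p = 0.000736), and with whole RNA alone 0.08 (0.856). Among the other 5 strains the levels ran from 3.17 in 129S1/ImJ to 3.20 in A/J and no pair passed. Leaving out each mouse in turn gave 0.46 to 0.68, the lowest without C57Bl/6J replicate 2, and 0.51 without C57Bl/6J replicate 1. The F test in GLOBINclear RNA was lost without C57Bl/6J replicate 2 (adjusted p = 0.0541), and without replicate 3 the interaction passed (2.16e-05).

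Trim30d 1435665_at read 4.11, 3.74 and 3.80 in GLOBINclear RNA of C57Bl/6J, with a lowest, median and highest value of 2.81, 3.14 and 3.23 in the 15 other arrays. In whole RNA C57Bl/6J read 3.98, 3.39 and 3.50 and the others 3.18 to 3.53. Replicate 1 stood highest in both preparations. C57Bl/6J exceeded the other strains by 0.54 ± 0.08 (SE; adjusted p = 0.000532), and by 0.40 to 0.64 with each mouse left out in turn, the lowest without C57Bl/6J replicate 1. All 5 of its pairs passed (0.51 to 0.61), and no pair among the other strains did. With GLOBINclear arrays alone the difference was 0.79 (adjusted p = 1.05e-05), and with whole RNA alone 0.30 (0.151).

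On the deposited scale depletion moved the Trim30d set in opposite directions by strain. It rose by 0.26 ± 0.07 (SE) in C57Bl/6J, in 3 of 3 mice (adjusted p = 0.00724), and in the other strains every mouse fell, by means of 0.11 in A/J to 0.36 in 129S1/ImJ. The interaction (0.026) was no longer past the threshold without 129S1/ImJ replicate 2 (0.0523), C57Bl/6J replicate 2 (0.114), C57Bl/6J replicate 3 (0.0883) or C3H/HeJ replicate 3 (0.0508), nor under quantile normalization within each preparation (0.154) or of all arrays (0.789), nor with spike-in centring (0.19). The second Trim30d set, 1438716_at, stayed between 2.71 and 3.04 on all 36 arrays and showed no strain difference without the filter on low values (F test in GLOBINclear RNA, adjusted p = 0.826).

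Trim34a 1424857_a_at was left out by the filter because it was near the bottom of the scale outside C57Bl/6J. It read 5.30, 4.42 and 4.12 in the C57Bl/6J arrays of GLOBINclear RNA, and 2.33, 2.42 and 2.62 as lowest, median and highest of the 15 others. In whole RNA C57Bl/6J read 4.05, 3.47 and 2.59 and DBA/2J 2.53, 2.74 and 3.31, while the other 4 strains lay between 2.49 and 2.80. So 1 C57Bl/6J mouse did not stand apart in whole RNA, and 1 DBA/2J mouse was raised there and not after depletion (2.44). Fitted without the filter over 45037 probe sets, C57Bl/6J exceeded the other strains by 1.47 ± 0.17 (SE; adjusted p = 0.000129), where 2.44% of all probe sets passed, and each of its 5 pairs passed (1.35 to 1.53, adjusted p from 0.0011 to 0.00316).

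Without the filter the Trim34a set also passed the F test in GLOBINclear RNA (adjusted p = 2.09e-05, beside 4.37% of all sets) and the interaction (0.000769, beside 1.13%), and not the F test in whole RNA (0.545, beside 1.73%), which passed without C57Bl/6J replicate 3 (0.0187) and in none of the other 17 fits that left out a mouse. Depletion raised it by 1.24 ± 0.12 (SE) in C57Bl/6J, in 3 of 3 mice (adjusted p = 5.55e-06). The C57Bl/6J difference was 1.13 to 1.79 with each mouse left out, past the threshold in 18 of 18 such fits, and 1.13 without replicate 1. The second Trim34a set, 1426093_at, lay between 2.999 and 3.64 on all arrays, with C57Bl/6J at 2.999, 3.25 and 3.26 in GLOBINclear RNA, inside the range of the others. Its strain contrast for C57Bl/6J was -0.04 ± 0.06 (SE; adjusted p = 0.924), so the 2 sets of this gene differ in whether they separate the strains.

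Trim30a showed a different order of strains. In GLOBINclear RNA 1451860_a_at read 5.52, 5.26 and 6.33 in 129S1/ImJ, 5.59, 5.39 and 4.93 in C3H/HeJ and 4.66, 5.30 and 5.57 in DBA/2J. C57Bl/6J read 5.77, 5.06 and 4.35, FVB/NJ 4.43, 4.05 and 3.997 and A/J 4.07, 4.25 and 3.95. The A/J and FVB/NJ arrays were the lowest apart from C57Bl/6J replicate 3, which lay among them. In whole RNA all 18 arrays lay between 3.95 and 4.51.

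Averaged over both arrays of a mouse, the Trim30a levels were 5.01 ± 0.27 (SD, n = 3) in 129S1/ImJ, 4.76 in C3H/HeJ, 4.70 in C57Bl/6J, 4.68 in DBA/2J, 4.13 in FVB/NJ and 4.08 ± 0.09 in A/J. No pair of neighbours in this order passed the test. The widest step, DBA/2J over FVB/NJ, was 0.55 ± 0.20 (SE; adjusted p = 0.203), with the mouse averages of the 2 strains not overlapping, and the other steps had adjusted p of 0.834 to 1. Of the 15 pairs, 129S1/ImJ passed against A/J (0.93 ± 0.20 SE, adjusted p = 0.0129) and against FVB/NJ (0.88 ± 0.20, 0.0145). Over all sets and pairs 12 of 120 passed, beside 3.51% of all tested, and the other 10 were the C57Bl/6J pairs of Trim12a and Trim30d. The 2 Trim30a calls were lost without 129S1/ImJ replicate 3 (0.053 and 0.0629), and the first also without A/J replicate 3 (0.0561) and the second without FVB/NJ replicate 3 (0.0598). Against the mean of the other 5 strains, 129S1/ImJ (0.54, adjusted p = 0.0503), A/J (-0.58, 0.0539) and FVB/NJ (-0.52, 0.0797) did not pass, whereas without C57Bl/6J replicate 1, and also without C57Bl/6J replicate 3, all 3 did.

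The second Trim30a set, 1417961_a_at, read 5.21, 4.69 and 3.38 in GLOBINclear RNA of C57Bl/6J and up to 4.501 in the others. Its C57Bl/6J contrast of 0.60 ± 0.22 (SE) did not pass (adjusted p = 0.167) and was 0.96 (0.018) without C57Bl/6J replicate 3. For Trim12c no strain passed. Set 1443858_at averaged 4.16 ± 0.07 (SD, n = 3) in FVB/NJ and 4.58 to 4.77 in the other strains (FVB/NJ contrast -0.51 ± 0.15 SE, adjusted p = 0.0779). Set 1445271_at read 3.15, 3.03 and 3.10 in GLOBINclear RNA of C57Bl/6J, above the highest of the others (2.95), but its contrast over both preparations did not pass (0.15 ± 0.06 SE, adjusted p = 0.15). Trim12a 1420648_at lay between 2.784 and 2.998 on all arrays and no strain differed.

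**Figure D3:**
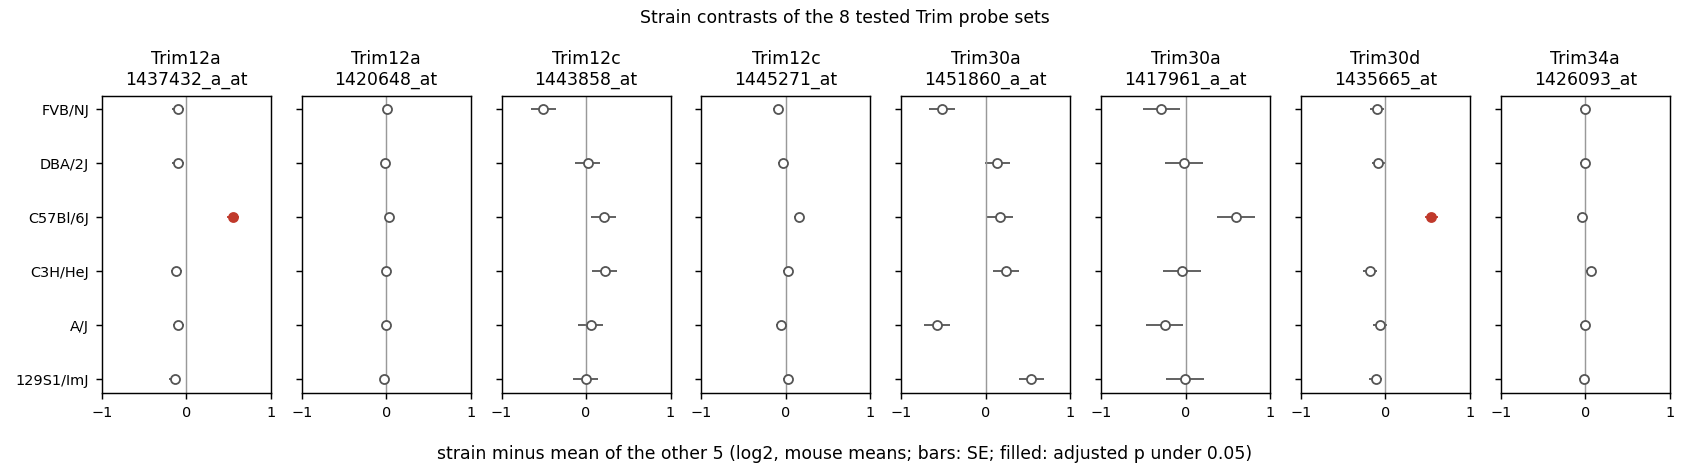
Each strain minus the mean of the other 5 (horizontal axis, log2, average of each mouse's pair of arrays) for the 8 tested Trim probe sets, 1 panel each, with strains on the vertical axis. Bars are standard errors (hidden where shorter than the point) and filled red points passed an adjusted p of 0.05. Trim12a 1437432_a_at (0.55) and Trim30d 1435665_at (0.54) in C57Bl/6J are the filled points, and Trim30a 1451860_a_at spans from -0.58 in A/J to 0.54 in 129S1/ImJ.

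Levels of the C57Bl/6J-high sets followed each other over the 18 mice. Trim34a 1424857_a_at correlated with Trim30d 1435665_at at 0.939 and with Trim12a 1437432_a_at at 0.929, and Trim12a with Trim30d at 0.854 (Pearson, mouse averages). Trim30a 1451860_a_at correlated with that Trim12a set at 0.175. These are descriptions: the mice share strains, and the 3 C57Bl/6J mice stand apart in all 3 sets. Among 11348 other genes the most similar to Trim12a were Apobec3 (0.928), Letmd1 (0.926) and Fgfbp3 (0.925), and to Trim30d 2810002D19Rik (0.943), Ppp2r5c (0.916) and Apobec3 (0.907). Apobec3 encodes a cytidine deaminase that restricts retroviruses. For Trim30a they were AB124611 (0.930), Twistnb (0.905) and Tex261 (0.904), for Trim12c Lipa (0.802), Psme1 (0.790) and Clasrp (0.774), and for Trim34a 1426093_at Slc5a9 (0.899), Npat (0.858) and Rbfox1 (0.844).

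The pathway around these proteins was followed through 4 gene lists, each gene read by its brightest probe set. Of 33 other TRIM genes tested, 3 passed the strain F test in whole RNA and 4 in GLOBINclear RNA, beside 4.77% and 12.3% of all 11353 genes tested. Trim37, a ubiquitin ligase of centrosome control, averaged 4.44 in 129S1/ImJ and 6.51 to 7.65 elsewhere (129S1/ImJ -2.58, adjusted p = 7.4e-06). Trim23 was highest in C57Bl/6J (5.11, contrast 1.14, adjusted p = 1.5e-05, and 1.01, 0.000146, without replicate 1). Trim5, a direct neighbour of Trim34a and Trim12a in the gene order, was looked at after its values were seen: it was higher in C57Bl/6J by 0.19 (adjusted p = 0.0125), at a mean of 3.31 against 3.11 to 3.16 in the others. The call held without C57Bl/6J replicate 1 (0.17, adjusted p = 0.0419) and was lost without replicate 2 (0.0658). After depletion 15 of the 33 rose and 17 fell, with a median difference of -0.09, beside 5077 that rose and 4891 that fell of all 11353 genes and a median of 0.04, and the rises were led by Trim8 (2.84) and Trim28 (1.92).

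Among 15 tested partners of TRIM5 in capsid sensing and ubiquitin signalling, 0 passed the strain F test in whole RNA and 1 in GLOBINclear RNA (Ube2d3, a ubiquitin-conjugating enzyme, adjusted p = 0.00929). Of all genes tested 4.77% and 12.3% passed. After depletion 8 rose and 5 fell, with a median difference of 1.06, beside the same 5077 and 4891 of all genes and their median of 0.04. The median is not particular to this list: those of the cell type marker lists ran from 0.48 (T cell) to 1.82 (B cell). Ube2v1, which with Ube2n builds the ubiquitin chains used in signalling, rose by 2.23, and Tab2, the adaptor that Trim30a acts on, rose by 1.87. Neither Tab2 (F test over mouse averages, adjusted p = 0.0329, and 0.0717 and 0.0601 in the single preparations) nor Ikbkb, the kinase of the NF-kB inhibitor (0.456), showed a C57Bl/6J contrast past the threshold (0.17 and 0.393).

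Of 16 tested restriction factors from other families, 3 passed the strain F test in whole RNA (18.8%) and 6 in GLOBINclear RNA (37.5%). Of all genes tested 4.77% and 12.3% passed. Apobec3 averaged 3.93 in C57Bl/6J and 2.88 to 3.05 in the others (contrast 0.99, adjusted p = 9.07e-05, and 0.76, 0.000122, without C57Bl/6J replicate 1). Serinc3, a membrane protein that is built into virions and lowers infectivity, averaged 8.38 in 129S1/ImJ and 11.6 to 12.2 in the others (-3.50, adjusted p = 1.22e-08). Ifitm3, which blocks viral fusion, was low in 129S1/ImJ (8.53, adjusted p = 0.00661) and FVB/NJ (8.68, 0.0281) against 9.53 to 10.2 elsewhere.

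Several interferon-stimulated genes were higher in the strain with the high Trim12a, Trim30d and Trim34a sets. Of 34 tested, 9 were higher and 0 lower in C57Bl/6J, beside 498 higher and 244 lower of all 11353 genes. In C3H/HeJ, which lacked the high Trim12a, Trim30d and Trim34a signals, 4 were higher and 1 lower, beside 84 and 74 of all genes. The C3H/HeJ count of higher genes ran from 2 to 6 with each mouse left out. In A/J 2 were higher and 1 lower (170 and 236 of all), and in DBA/2J 0 and 1 (114 and 136). In 129S1/ImJ 0 were higher and 11 lower, beside 370 higher and 357 lower of all genes. In FVB/NJ 0 were higher and 4 lower, beside 324 and 120. Leaving out each mouse in turn gave 4 to 10 higher and 0 lower in C57Bl/6J. The count was 4 without C57Bl/6J replicate 1, where 490 of all genes were higher, and also without C57Bl/6J replicate 3, A/J replicate 3 or C3H/HeJ replicate 2. It was 5 without A/J replicate 2, DBA/2J replicate 3 or FVB/NJ replicate 1, and 6 without DBA/2J replicate 1 or FVB/NJ replicate 3. Without C57Bl/6J replicate 1, 2 were higher in 129S1/ImJ. The 129S1/ImJ count of lower genes was 5 without its replicate 3 and 6 without its replicate 1, and that of FVB/NJ ran from 3 to 8, the highest without 129S1/ImJ replicate 3. Irf7, a main transcription factor of type I interferon, averaged 8.48 in C57Bl/6J, 7.50 in C3H/HeJ, 6.405 in A/J, 5.74 in DBA/2J, 3.74 in 129S1/ImJ and 3.24 in FVB/NJ. Oasl2 averaged 5.38 in C57Bl/6J and 2.97 to 3.89 elsewhere (contrast 2.09, adjusted p = 2.8e-05), and Trafd1 5.52 against 4.07 to 4.96 (1.12, adjusted p = 0.000188). Without C57Bl/6J replicate 1 the contrasts were 2.89 for Irf7, 1.67 for Oasl2 and 1.26 for Trafd1 (adjusted p of 0.000322, 4.83e-05 and 0.000259). The mean over the list in GLOBINclear RNA was 5.59, 5.08 and 5.16 in C57Bl/6J and between 4.04 and 5.26 in the other 15 arrays, so the ranges overlapped. Without replicate 1 the C57Bl/6J mean was 5.12, next to 5.09 in C3H/HeJ. Trim30a stood in another order: 129S1/ImJ had the highest Trim30a level and a low list level (4.399 ± 0.35, SD, n = 3). The part of interferon in the Trim results was not tested.

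Cell type markers moved with strain as well. Platelet markers were higher in C57Bl/6J for 7 of 10 genes, beside 498 of all 11353 genes. The count was 8 without its replicate 1, 0 without replicate 2 and 2 without replicate 3. In these fits 490, 251 and 513 of all genes were higher. The mean over the platelet list in GLOBINclear RNA was 11.01, 11.68 and 11.56 in C57Bl/6J. FVB/NJ, which lacked the high Trim signals, read 11.33, 10.91 and 11.48. B cell markers in GLOBINclear RNA of C57Bl/6J read 6.69, 6.30 and 5.04 for replicates 1 to 3, and T cell markers 6.46, 4.72 and 4.22. Replicate 3, with the lowest lymphocyte marker levels of the strain, also had the lowest Trim12a 1437432_a_at (3.38), Trim30a 1417961_a_at (3.38) and Trim34a 1424857_a_at (4.12) values in GLOBINclear RNA. Trim30d 1435665_at was lowest there in replicate 2 (3.74, against 3.80 in replicate 3). In whole RNA replicate 3 again had the lowest T and B cell marker levels (3.78 and 3.66) and the lowest Trim34a 1424857_a_at value (2.59). Its Trim12a 1437432_a_at value in whole RNA (3.59) was the highest of the strain. DBA/2J had a higher B cell level (6.35 ± 0.24, SD, n = 3) and no high Trim12a, Trim30d or Trim34a signal in GLOBINclear RNA. The part of cell composition in the C57Bl/6J result was not tested.

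Strain means of myeloid markers were highest in 129S1/ImJ and low in A/J and FVB/NJ, as were those of Trim30a. The mean over neutrophil markers in GLOBINclear RNA was 6.35 ± 1.32 (SD, n = 3) in 129S1/ImJ, 5.55 in C3H/HeJ and 5.39 in DBA/2J, and 4.64 in C57Bl/6J, 4.60 in A/J and 4.43 in FVB/NJ. Monocyte markers ran from 6.71 in 129S1/ImJ to 5.71 in FVB/NJ and 5.51 in A/J. Within strains the order was mixed. In 129S1/ImJ replicate 3 had the highest Trim30a value (6.33) and the highest neutrophil level (7.87), whereas in A/J, C57Bl/6J, C3H/HeJ and FVB/NJ replicate 3 had the highest neutrophil level (4.87, 5.07, 5.98 and 4.77) and the lowest Trim30a value of its strain in GLOBINclear RNA. The part of myeloid cells in the Trim30a differences was not tested.

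**Figure D4:**
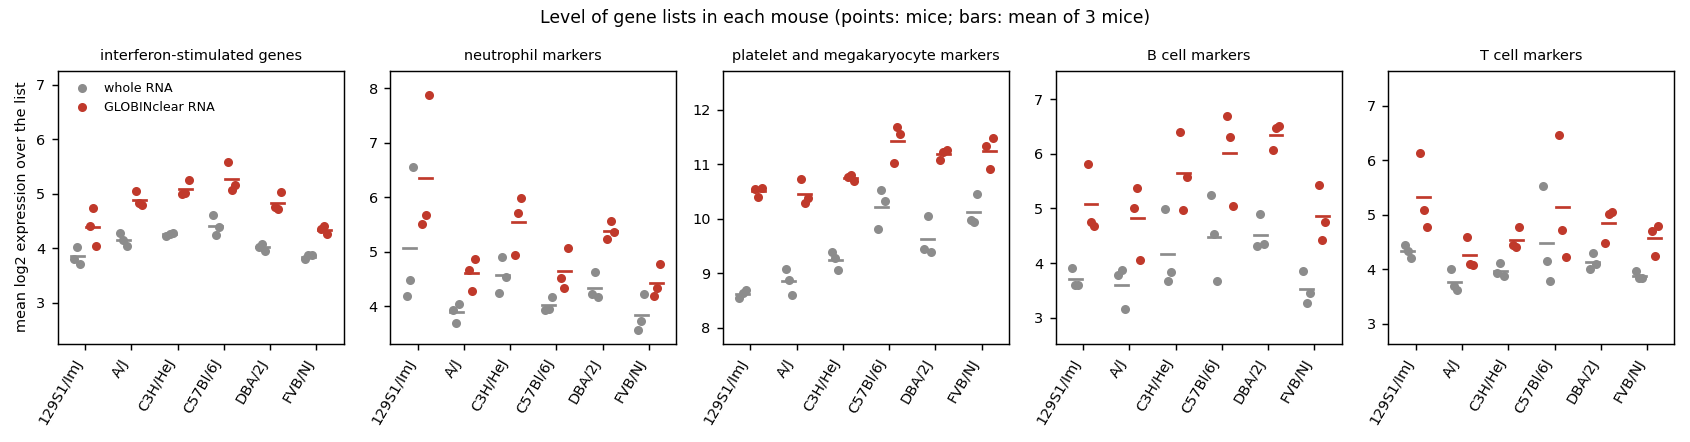
Mean deposited log2 expression over interferon-stimulated genes and over 4 lists of cell type markers (1 panel each, vertical axis; every panel spans the same log2 range) by strain in whole (grey) and GLOBINclear (red) RNA. Points are mice and bars the mean of 3 mice. The interferon-stimulated list is highest on average in C57Bl/6J (5.28 in GLOBINclear RNA) and lowest in FVB/NJ (4.34), while neutrophil markers are highest in 129S1/ImJ (6.35).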

How the data were processed

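Blood RNA of 18 mice was measured on 36 arrays. The authors deposited expression summaries on a log2 scale, with 1 value for every probe set of an array; that scale was read from the values, and GCRMA, MAS5 and affy were used per the submitters' processing notes, with version, role and order not given in the sources used here. Whether both preparations were normalized together is likewise not given. Groups and replicate numbers were taken from titles. The strain label 129S1/ImJ is used, which the labels' protocol text writes as 129S1/SvImJ. All value columns were used (0 left unused). Genes were named through the platform annotation: 34945 probe sets had 1 symbol, 932 several and 9160 none, outside 64 control sets. The number of arrays, 3 mice per strain, limits the precision. Strain tests were judged against the spread between mice. Depletion and interaction tests were judged against the spread of the paired changes within mice.

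Probe sets with a mean over 36 arrays above the median (2.89) were tested, 22518 in all, with limma 3.58.1 in R 4.3.3 (lmFit, eBayes with an intensity trend; package data.table, version 1.17.8) and Benjamini-Hochberg adjustment at 0.05 over all of them. The depletion effect and its interaction with strain had the mouse as a block, since both arrays of a mouse come from 1 extract per the series design (their deviations from group means correlated at -0.08 to 0.66, median 0.38). Strains were compared by an F test within each preparation and, on the average of each mouse's pair of arrays, against the other 5 and in 15 pairs. Scripts were tested on simulated data. The named genes are all Trim probe sets of the 5 genes, per list up to 4 genes with the largest F over strains and 2 with the largest depletion statistic, and per Trim gene the 3 most correlated others. The members and lists were chosen with earlier results of these data known. Alternatives were the filter, centring, quantile normalization, the trend, the block, each preparation alone and leaving out each mouse. Promoters were read with Python 3.11.15 and aligned with Biopython; no probe or protein sequence was used here.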

Additional observations from a re-analysis of the deposited data

Results flagged for a closer look

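The change of Trim30d 1435665_at after depletion differed between strains (limma interaction, adjusted p = 0.026). On the deposited scale the set rose in 3 of 3 C57Bl/6J mice and fell in all 15 mice of the other strains. The interaction did not pass without 129S1/ImJ replicate 2, C57Bl/6J replicate 2, C57Bl/6J replicate 3 or C3H/HeJ replicate 3 (adjusted p from 0.0508 to 0.114). Nor did it pass under either quantile normalization or spike-in centring. Spike-in centring turned the mean change of the set into a rise.

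On the deposited scale the changes of Trim34a 1424857_a_at after depletion differed in sign between strains. All 3 C57Bl/6J mice rose, with a mean of 1.24. All mice of A/J (-0.17), C3H/HeJ (-0.0911), DBA/2J (-0.42) and FVB/NJ (-0.15) fell, mostly near the bottom of the scale. The median change over all probe sets was -0.0855. With the filter on low values the difference between strains was not tested. Without the filter the limma interaction had an adjusted p of 0.000769. Within strains the fall then passed in DBA/2J (limma, adjusted p = 0.0139), where 1 mouse was raised in whole RNA. It did not pass in A/J (0.254), C3H/HeJ (0.513) or FVB/NJ (0.305).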

How the results depend on the processing

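Of the results for the 5 Trim genes, the 0 strain calls in whole RNA stayed at 0 for the 8 tested sets under every alternative run for that test, while Trim34a 1424857_a_at, below the filter, passed there without the filter and without C57Bl/6J replicate 3 (0.0187), and the C57Bl/6J contrasts of Trim12a 1437432_a_at and Trim30d 1435665_at held under all of them except whole RNA alone (0.08 and 0.30) and the stricter filter, which leaves both out. Depletion calls (6) were 2 with a minimum mean of log2 4, which keeps fewer sets, and 3 under median centring and under quantile normalization of all arrays. The interaction call (1) became 2 without the filter and 0 under either quantile normalization and under spike-in centring. Calls in GLOBINclear RNA (3) were 1 with the stricter filter. Strain contrasts (2) were 4 with the stricter filter or no trend and 0 in whole RNA alone, and pairs (12) were 3 and 0 with the stricter filter and in whole RNA alone. Apart from the stricter filter, the causes were not tested.

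Directions turned for Trim12a 1420648_at (0.0156 under median centring, 0.0139 under quantile normalization of all arrays) and Trim30a 1451860_a_at (-0.11 under the latter). Spike-in centring turned Trim12a 1420648_at (2.01) and 1437432_a_at (1.99), Trim34a 1426093_at (1.98), Trim30d 1435665_at (1.93) and Trim12c 1445271_at (1.76). Leaving out each mouse gave 6 to 7 depletion calls, 0 to 1 interaction calls, 2 to 4 in GLOBINclear RNA, 2 to 7 contrasts (7 without C57Bl/6J replicate 3, 6 without replicate 1) and 10 to 16 pairs. The fits of Trim34a 1424857_a_at without the filter and of the gene lists, each with every mouse left out in turn, were chosen after seeing the data.

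Without the mouse block the depletion calls were the same 6, and the 1 interaction call was Trim12a 1437432_a_at in place of Trim30d. Replicate numbers were not taken to pair mice across strains. Deviations of same-numbered mice correlated at -0.45 to 0.54 (median 0.03, against -0.02 for other numbers), and 9 of 18 mice had their best match under their own number. Whether the numbers pair mice was not settled by these values. With the replicate block the counts were 0 in whole and 3 in GLOBINclear RNA, 2 contrasts and 12 pairs. Signal over background limits all 10 sets, and least Trim12c 1443858_at and Trim30a 1451860_a_at.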
